A study of Mus musculus with 4 samples.

Results

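Npr3-high adipocytes were white fat cells of the mouse inguinal depot whose nuclei carried abundant RNA of Npr3, the gene of natriuretic peptide receptor C. Their nuclei were chosen by counts of unique molecular identifiers (UMIs), the random tags that tell single RNA molecules apart. A member had at least 800 UMIs in all, at least 3 Npr3 UMIs and 0 UMIs of Ucp1, the heat-producing protein of beige fat cells. It also had UMIs of at least 2 of the adipocyte genes Adipoq, Plin1, Plin4, Lipe and Pparg, and of at most 1 of the lipogenic genes Acly, Fasn and Elovl6. Of 15329 nuclei, 12518 had enough UMIs, 4453 passed every gate other than that on Npr3 (the gated adipocyte nuclei), and 860 were members, which is 19.3% of the gated nuclei and 5.61% of all nuclei. Gated nuclei with 0 Npr3 UMIs (Npr3-0 nuclei, 2534 in all) were the reference, and the 1059 gated nuclei with 1 or 2 Npr3 UMIs were in neither class.

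The nuclei came from single-housed male C57BL/6 mice that were 9 weeks (young) or 57 weeks (aged) old. Mice spent 3 weeks at thermoneutrality (TN, 30 °C) and then either stayed there or were moved to 6 °C for the last 3 days (3D) or for 14 days (14D). The 6 combinations of age and temperature had 2 mice each, of which replicate 1 was in pool 1 and replicate 2 in pool 2. The 2 mice of a group were separate animals, and each p-value below measures the spread between mice.

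Natriuretic peptides are hormones of the heart and vessels that act on fat through receptors which make cyclic GMP, and in adipocytes this signal releases stored fat and can raise thermogenic genes. Natriuretic peptide receptor C has no cyclase domain. It takes the peptides up and clears them, and it can couple to inhibitory G proteins. The balance of clearance receptor to signalling receptor is known to set how strongly fat responds to these hormones.

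Among members the median Npr3 count was 5 UMIs and the highest was 37, and 154 members had 10 or more. The 228 members just inside the threshold had 3 Npr3 UMIs, and 338 gated nuclei just outside had 2. Members were more deeply sequenced than the reference, with a median of 2733 UMIs per nucleus against 1934.5 in Npr3-0 nuclei. Young mice gave 57 and 24 members at TN, 33 and 20 at 3D, and 55 and 8 at 14D, in the order of replicates 1 and 2. Aged mice gave 192 and 147 at TN, 84 and 70 at 3D, and 76 and 94 at 14D. The mouse young 14D replicate 2, with 8 members, fell below the minimum of 10 nuclei and was left out of each fit on members, which thus held 5 young and 6 aged mice.

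A doublet caller marked 23 members (2.67%) and 142 Npr3-0 nuclei (5.60%). At least 2 genes of a list for another cell type were found in 58 members (6.74%) and in 394 Npr3-0 nuclei (15.5%). Of the 11 barcodes that both pools held, none belonged to a member. The 10 adipocyte genes outside the gate were all present in both classes, with a summed level of 22564 to 58431 UMIs per 1000000 UMIs (CPM) in members and 14053 to 53979 CPM in Npr3-0 nuclei. Summed fibroblast markers lay at 39.4 to 350 CPM in members and at 149 to 2727 CPM in Npr3-0 nuclei. Endothelial markers lay at 0 to 97.4 against 16.8 to 1982 CPM, immune markers at 0 to 138 against 0 to 244 CPM, and smooth muscle and pericyte markers at 0 to 70.3 against 13.2 to 498 CPM. Schwann markers lay at 0 to 85.6 against 42.6 to 99.3 CPM. Liver markers, at 165 to 863 CPM (median 636) in members and 215 to 1147 CPM (median 646) in Npr3-0 nuclei, had like sums, but 3 of the 4 tested were called lower in members, namely Cps1 (0 against 115 UMIs), Alb (0 against 48) and Stab2 (2 against 156). Cdh5, Rgs5, Ttn and Sox10 of endothelial cells, pericytes, muscle and Schwann cells were at 0 in members as well, while the smooth muscle gene Acta2 was called higher in them (39 against 6 UMIs, higher in 3 and lower in 2 of 11 mice). Members were thus adipocyte nuclei by these markers.

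The markers given for this cell type besides Npr3 were Ptchd4, a membrane protein related to the hedgehog receptor, Cacna1e, the pore subunit of an R-type calcium channel, and Nkain2, a partner protein of the sodium pump. All came from earlier results on these nuclei, so that their enrichment is no independent support for the label. After each nucleus was thinned to 800 UMIs, 607 members (70.6%) had a UMI of none of these 3 genes, 204 (23.7%) of 1, 45 (5.23%) of 2 and 4 (0.465%) of all 3. Of the Npr3-0 nuclei, 2434 (96.1%) had none. In the same thinned counts, Ptchd4 was found in 10.8% of members (95% Wilson interval 8.91 to 13.1) and 1.34% of Npr3-0 nuclei, and before thinning in 22.3% and 2.49%. Cacna1e was found in 15.5% (13.2 to 18.0) and 1.89%, and Nkain2 in 9.30% (7.54 to 11.4) and 1.07%. These intervals cover counting error only. Immune nuclei, which should lack the 3 genes, gave 0.110%, 0.658% and 0.110% at a median of 1416 UMIs, and Npr3 itself was found in 0.110% of immune and 28.0% of gated adipocyte nuclei. Endothelial nuclei gave 0.355%, 2.13% and 0%, so that their Cacna1e share was above that of Npr3-0 nuclei. Fibroblast nuclei gave 0.699%, 0.0777% and 0.816%. Npr3 was found in 0.709% of endothelial and 0.0388% of fibroblast nuclei. Npr3 was fixed by the rule. Ptchd4 and Cacna1e were found in members at both ages, but Nkain2 hardly in young mice, whose members held 1 Nkain2 UMI of 503581 while aged members held 451 of 2248483.

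The levels of these genes were graded along the Npr3 count, with no test since that count chose the members. Pooled over mice, Ptchd4 was at 15.7 CPM in nuclei with 0 Npr3 UMIs, 46.6 with 1, 51.0 with 2, 60.3 with 3, 117 with 4 or 5, 199 with 6 to 9 and 322 with 10 or more. Synpo2, an actin-binding protein, went from 32.1 to 307 CPM over the same range, and Cacna1e from 24.9 to 367 CPM. Fgf14, a protein that binds sodium channels, ran the other way, from 506 CPM at 0 Npr3 UMIs to 334 at 1 and 61.2 at 10 or more. The median depth rose along the same axis from 1934.5 to 4619 UMIs per nucleus, and its part in these trends was not tested.

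**Figure D1:**
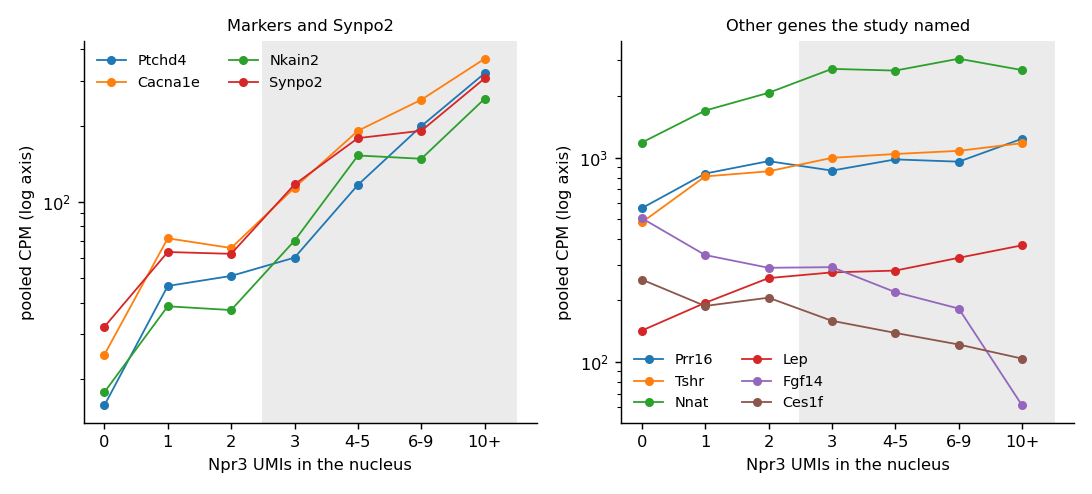
Pooled level in CPM (log axis) of 4 genes on the left and 6 genes on the right by the number of Npr3 UMIs of a gated nucleus, with the range of members shaded. Ptchd4 climbs from 15.7 to 322 CPM and Fgf14 falls from 506 to 61.2 CPM, with values between these ends at the counts on both sides of the threshold.

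Npr3-positive nuclei were most frequent in aged mice at thermoneutrality. The share of gated nuclei with at least 1 Npr3 UMI, at 800 UMIs per nucleus, was 32.4% and 27.0% in the young TN mice, 16.6% and 11.1% at 3D and 22.8% and 8.91% at 14D. In aged mice it was 56.8% and 54.7% at TN, 24.6% and 22.3% at 3D and 17.8% and 28.3% at 14D. Both aged TN mice lay above every other mouse, both aged 3D mice lay above both young 3D mice, and the ages overlapped at 14D. Over the temperatures, young mice had a mean share of 19.8% ± 9.20 (SD, n = 6) and aged mice one of 34.1% ± 17.1 (SD, n = 6), a difference of 14.3 percentage points that was higher in 5 of 6 matched pairs. The two-sided exact permutation p was 0.0625 (adjusted p 0.0625 over the 2 share tests), where 0.03125 is the smallest that the 64 arrangements allow. In pool 1 alone it was 9.16 points and in pool 2 alone 19.4 points. Thinned to 1600 UMIs, it was 21.5 points (exact permutation p 0.03125).

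From TN to 14D the share fell by 23.3 percentage points, and it was lower at 14D in 4 of 4 pairs of mice (exact permutation p 0.0170, adjusted p 0.0340, 1296 arrangements). In pool 1 alone it was -24.3 points and in pool 2 alone -22.2 points. It was -13.9 points in young and -32.7 points in aged mice, and these values were not compared by a test. Without aged TN replicate 1 or aged 14D replicate 1 the difference was -18.0 points (exact permutation p 0.0833), and without young TN replicate 2 or young 14D replicate 2 it was -25.0 points (0.0556). Median depth of gated nuclei ran with temperature, at 1268.5, 2039 and 2599 UMIs for young and 1684, 2910 and 2996 UMIs for aged mice at TN, 3D and 14D. Without thinning, the share with at least 3 Npr3 UMIs was 12.4%, 5.92% and 11.2% at TN, 3D and 14D for young mice and 41.4%, 22.0% and 19.6% for aged ones, and the mean difference from TN to 14D was -11.5 points (exact permutation p 0.0664).

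**Figure D2:**
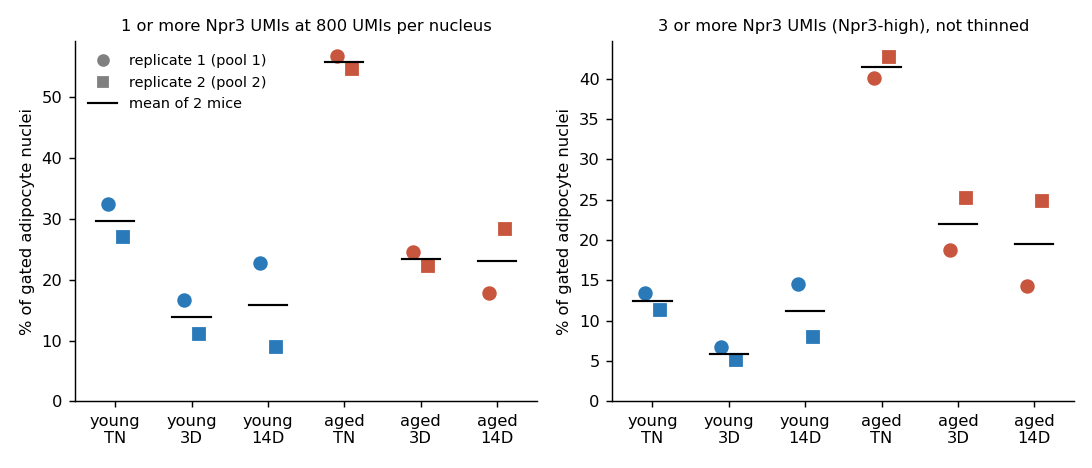
Percent of gated adipocyte nuclei per mouse with at least 1 Npr3 UMI at 800 UMIs per nucleus (left) and with at least 3 Npr3 UMIs without thinning (right), by age and temperature; circles are pool 1, squares pool 2, and lines the mean of 2 mice. The 2 aged TN mice, at 56.8% and 54.7% on the left, stand above the 10 other mice.

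The level of Npr3 (GRCm38, chr15:11839896-11907287, minus strand) over all gated nuclei, whatever their Npr3 count, followed the same order. It was 723 and 522 CPM in young TN mice, 282 and 201 CPM at 3D and 489 and 315 CPM at 14D. Aged mice had 1489 and 1737 CPM at TN, 563 and 574 CPM at 3D and 408 and 567 CPM at 14D. The aged TN mice were again the highest, and aged 14D replicate 1 was the 1 aged mouse below its young match. Young mice had a mean of 422 ± 192 CPM (SD, n = 6) and aged mice one of 890 ± 569 CPM (SD, n = 6), a log2 difference of 0.97 (SE 0.17, edgeR quasi-likelihood test with Benjamini-Hochberg adjusted p 0.0385, higher in 5 of 6 pairs). In that comparison 0.796% of the 9927 genes tested were called. That Npr3 is higher with age was known from these nuclei before and is no independent result. The call held without young 14D replicate 1, young 14D replicate 2 or aged 14D replicate 1, and was lost without any 1 of the other 9 mice, with adjusted p between 0.0555 and 0.154.

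Npr3 was lower in the cold within gated nuclei. Against 1118 ± 587 CPM (SD, n = 4) at TN, Npr3 was at 405 ± 192 CPM (n = 4) at 3D, a log2 difference of -1.44 (SE 0.21, adjusted p 0.0350, lower in 4 of 4 pairs), where 0.181% of genes were called. Without the pool in the model the same difference had an adjusted p of 0.0638. At 14D it was at 445 ± 108 CPM (n = 4), a log2 difference of -1.17 (SE 0.21, adjusted p 0.0554), lower in 4 of 4 pairs, where 0.302% of genes were called. DESeq2 gave -1.16 with an adjusted p of 0.000141 for this difference. The 3D call held without either young 14D mouse and was lost without any 1 of the other 10 mice, with log2 differences between -1.55 and -1.32. The 14D response of aged mice minus that of young mice was -1.10 (SE 0.42, adjusted p 0.853), so that no difference between ages was called.

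Within the same mice, 795 of 7621 genes (10.4%) differed between Npr3-high and Npr3-0 nuclei, of which 420 (5.51%) were higher and 375 (4.92%) lower in members. The 10 gate genes were left out. The same direction in all 11 mice was found for 127 of the higher and 79 of the lower genes. Each mouse served as its own control. Without this block, where the low-count filter also left fewer genes, 211 of 5376 genes were called, against 610 of the same number with the block. When nuclei with markers of other cell types were removed, 699 genes were called, 421 higher and 278 lower, and 543 of the 686 earlier calls that could be tested there were called in both.

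The gene with the smallest p was Eepd1, a protein with a nuclease domain that is studied in DNA repair. Its level in members ran from 943 over a median of 1287 to 2596 CPM, and in Npr3-0 nuclei from 238 over 503 to 1289 CPM. Each of the 11 mice had more Eepd1 in its members, although the ranges over mice overlapped. The means were 1614 ± 628 and 588 ± 337 CPM (SD, n = 11), a log2 difference of 1.53 (SE 0.08, adjusted p 8.67e-18). Lpgat1, an acyltransferase that remodels phospholipids, was the clearest by range, with 1081 to 1775 CPM in members and 345 to 932 CPM in Npr3-0 nuclei. Its ranges did not overlap, and its log2 difference was 1.25 (SE 0.08, adjusted p 1.07e-15).

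Ptchd4 ran from 28.6 over 131.8 to 355.7 CPM in members and from 0 over 11.5 to 49.1 CPM in Npr3-0 nuclei. It was higher in the members of 11 of 11 mice, by a log2 difference of 2.99 (SE 0.19, adjusted p 1.50e-15), the widest of the named higher genes. Synpo2 was at 194 ± 117 CPM against 41.8 ± 41.5 CPM (log2 2.29, SE 0.18). Cacna1e was at 187 ± 174 against 32.5 ± 40.6 CPM (log2 2.67, higher in 10 of 11 mice). Nkain2 was at 111 ± 134 against 25.1 ± 35.1 CPM (log2 2.32), but was higher in members of 7 of 11 mice only and lower in 3. The members' Nkain2 thus came from the aged mice.

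Others that were higher in every mouse were Gnai1, an alpha subunit of inhibitory G proteins, at 652 ± 214 against 308 ± 97.0 CPM (log2 1.08), and Aldh1a1, which makes retinoic acid, at 1075 ± 409 against 544 ± 188 CPM (0.97). Prr16, a protein linked to cell size, differed by 1.13, the endocytosis adaptor Hip1 by 1.21, Palmd by 1.01 and the predicted gene Gm4876 by 1.30 on the log2 scale. The 5 genes that the study itself attached to these adipocytes, Prr16, Synpo2, Lep, Nnat and Tshr, were all called higher (median log2 1.09, against -0.01 over all genes tested), but they were chosen on these same nuclei. Leptin (Lep), the satiety hormone of fat, was at 290 ± 116 CPM against 157 ± 70.2 CPM (log2 0.94, higher in 10 of 11 mice). Ptger3, a prostaglandin receptor that lowers cyclic AMP, was at 197 ± 165 against 62.9 ± 44.3 CPM (log2 1.50, 11 of 11 mice).

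Among the genes lower in members, Ebf2, a transcription factor of brown and beige fat precursors, stood out by range. It lay between 112 and 533 CPM in members and between 643 and 1077 CPM in Npr3-0 nuclei, with no overlap (log2 -1.58, SE 0.10, adjusted p 1.50e-15). Ppara, a nuclear receptor for fat oxidation, was at 167 ± 71.3 against 443 ± 306 CPM (log2 -1.26, SE 0.12, adjusted p 5.26e-11), lower in 11 of 11 mice with overlapping ranges. Acacb, the acetyl-CoA carboxylase at mitochondria, differed by -0.92, the metalloprotease Adam12 by -1.01, Bmper, which binds bone morphogenetic proteins, by -1.01 and the repressor Zeb1 by -0.70. The call on Acacb was lost without the mouse block (-0.93, adjusted p 0.225). In nuclei of the 2 classes matched for depth, Acacb differed by -0.90 and Ppara by -1.13.

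Wide drops were found for the cyclic nucleotide phosphodiesterases Pde3a (log2 -3.18, 13 UMIs in members and 248 in Npr3-0 nuclei) and Pde11a (-2.58, 40 against 445 UMIs), the guidance cue Slit2 (-2.19) and the glypican Gpc6 (-2.04). Fibroblast markers moved the same way, with Pdgfra, Lama2, Dcn and Dpp4 lower among the 5 tested (log2 -2.23 for Pdgfra and -2.14 for Lama2). With nuclei that held markers of other cell types removed, Slit2 differed by -2.55 and Gpc6 by -2.78, both still called, while Pde3a and Pde11a had too few counts to be tested. The call on Slit2 was lost without the mouse block (-1.76, adjusted p 0.0730). The part of fibroblast RNA in the remaining differences was not tested.

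**Figure D3:**
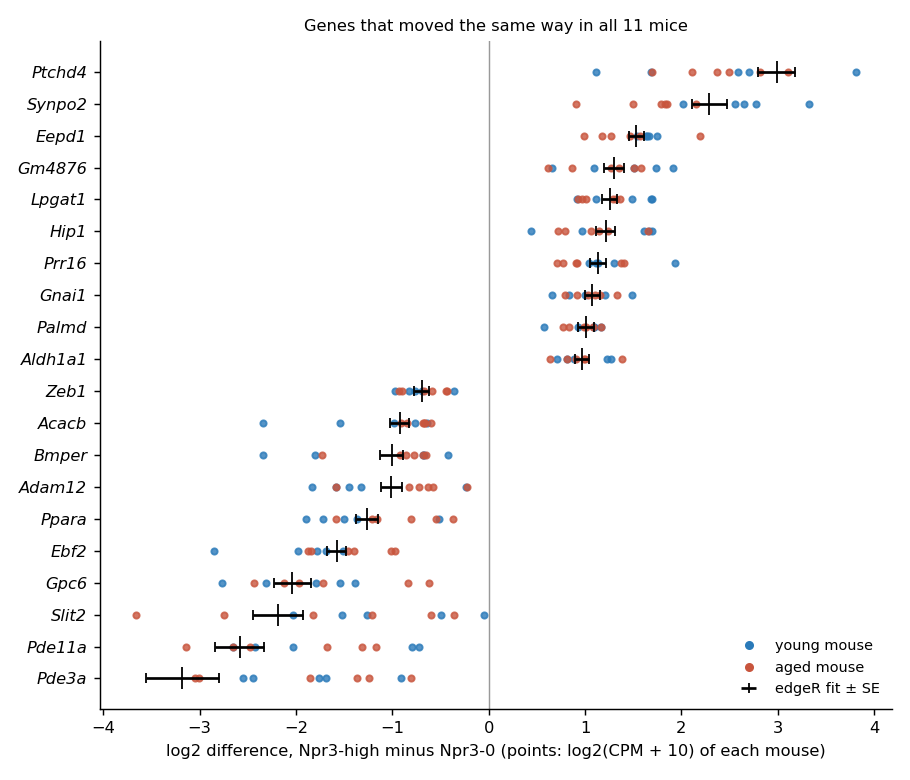
Difference between Npr3-high and Npr3-0 nuclei of the same mouse, as log2(CPM + 10), for the 20 named genes that moved the same way in all 11 mice; blue points are young and red points aged mice, and black marks the edgeR estimate with its SE. Ptchd4 has the highest estimate (2.99) and Pde3a the lowest (-3.18).

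The promoters of Npr3, which defines the nuclei, and of Eepd1, the gene with the smallest p, are shown. Each is the 150 bases before the annotated start in RefSeq's GRCm38.p6, read 5′ to 3′ on the gene's strand, at chr15:11907372-11907521 (minus strand) for Npr3 and chr9:25481447-25481596 (plus strand) for Eepd1. RefSeq starts Npr3 further upstream than the Ensembl gene span given for it above. Capitals mark matches, on either strand, to the GC box (GGGCGG) or to the CCAAT box. Matches to the GC box can overlap each other, and 3 other motifs had no match in either window. They were TATAAA for the TATA box, CACGTG for the E-box and TTGCGCAA for C/EBP.
Npr3: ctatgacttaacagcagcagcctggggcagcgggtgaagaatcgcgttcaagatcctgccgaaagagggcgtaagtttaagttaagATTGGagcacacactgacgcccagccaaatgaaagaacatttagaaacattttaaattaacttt
Eepd1: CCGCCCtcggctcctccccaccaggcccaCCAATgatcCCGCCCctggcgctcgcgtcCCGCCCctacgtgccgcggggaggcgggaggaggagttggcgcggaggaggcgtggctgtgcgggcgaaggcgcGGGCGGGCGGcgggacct
The Npr3 window had a GC content of 44% and 1 match, and that of Eepd1 78.7% and 6 matches. Of 32851 promoter windows of this length, 28.6% held the GC box, 24.5% the CCAAT box, 7.57% the TATA box, 4.30% the E-box and 0.113% the C/EBP motif. Among tested genes with a window, the GC box was in 59.2% of the 309 higher genes and 58.0% of the 262 lower genes, and in 61.7% of all 6000. For the CCAAT box these shares were 28.8%, 32.8% and 31.2%. These shares are descriptions and were not tested.

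Among the functional lists, thermogenic genes had the lowest median. Of 11 such genes outside the gate, 8 were lower and none higher in members, with a median log2 difference of -1.17. Esrrg, a nuclear receptor of oxidative metabolism, was at 56.6 ± 40.2 against 227 ± 205 CPM (log2 -1.44) and Ppargc1a, its coactivator, at 73.7 ± 20.6 against 140 ± 59.6 CPM (-0.93), both lower in 11 of 11 mice. Cidea, a lipid droplet protein of brown fat, differed by -1.59, Pdk4 by -1.32, glycerol kinase (Gk) by -1.17, the potassium channel Kcnk3 by -1.03 and the beige regulator Prdm16 by -0.60. Both classes had 0 Ucp1 UMIs by the rule. Mean Esrrg at TN, 3D and 14D was 73.0, 362 and 253 CPM in Npr3-0 nuclei and 51.2, 44.0 and 80.4 CPM in members. The median depth was 2733 UMIs in members and 1934.5 in Npr3-0 nuclei. The part of depth and of the gate in this list as a whole was not tested.

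Lipogenic genes outside the gate leaned lower. Of 15, 6 were lower (Acacb, Acss2, Acaca, Tkt, Thrsp and Insig1) and Scd1, a fatty acid desaturase, was higher (log2 0.31, 11 of 11 mice), with a median of -0.39. The gate allowed at most 1 of 3 other lipogenic genes in both classes, the median depth was 2733 UMIs in members and 1934.5 in Npr3-0 nuclei, and the part of both in this list was not tested. In contrast, 5 of 7 genes tied to growth of fat cells were higher and none lower (median 0.65). These were the caveolar genes Cav1, at 1011 ± 162 against 643 ± 132 CPM (log2 0.65, 11 of 11 mice), and Cavin2 (0.48), with Bmp3 (1.30), Peg3 (0.74) and Mest (2.63, but only 68 against 18 UMIs). By direction, 5.51% of all genes tested were higher and 4.92% lower.

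The natriuretic peptide pathway itself was hardly measurable. Of its 22 genes, 9 could be tested, 1 was higher (Gnai1) and 1 lower (Prkg1, a cyclic GMP-dependent kinase, log2 -1.44), with a median of 0.23. Npr1, the main signalling receptor, its ligands and Corin, which activates them, had too few UMIs to test, and Npr2 was at 46.2 ± 15.3 against 40.1 ± 14.3 CPM (log2 0.29, not called).

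Adrenergic and lipolytic genes went both ways, with 5 of 25 higher and 3 lower (median -0.02). Among them Adcy5, an adenylyl cyclase, was higher by 0.56, G0s2, an inhibitor of fat breakdown, by 0.44 and Acvr1c by 0.36. The alpha-adrenergic receptor Adra1a was lower by 0.83 on the log2 scale (-0.83), the phosphodiesterase Pde3b by -0.28 and Plin2 by -0.49. Adrb3, the main beta-adrenergic receptor of mouse fat, was at 661 ± 182 against 633 ± 126 CPM (log2 0.03, not called). Among genes of insulin action, Grb14, Grb10, Irs2 and Foxo1 were higher and Igf1r and Pck1 lower.

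Of 13 genes of lipid uptake, Cd36 was higher (0.25) and Lpl and Acsl1 lower (-0.21 and -0.24). Adamts5, a matrix protease, was higher in 11 of 11 mice (497 ± 277 against 183 ± 94.9 CPM, log2 1.35), as 1 of 4 higher among 11 matrix genes, with Lamb1 lower. Among hedgehog genes Ptchd4 and Boc were higher and Gli3 lower. Of 6 calcium channel genes Cacna1e and Ryr2 were higher and Cacna1a lower, of 10 adipokine genes Lep and Nnat were higher and Nampt lower, and of 5 sodium pump genes Nkain2 was higher.

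**Figure D4:**
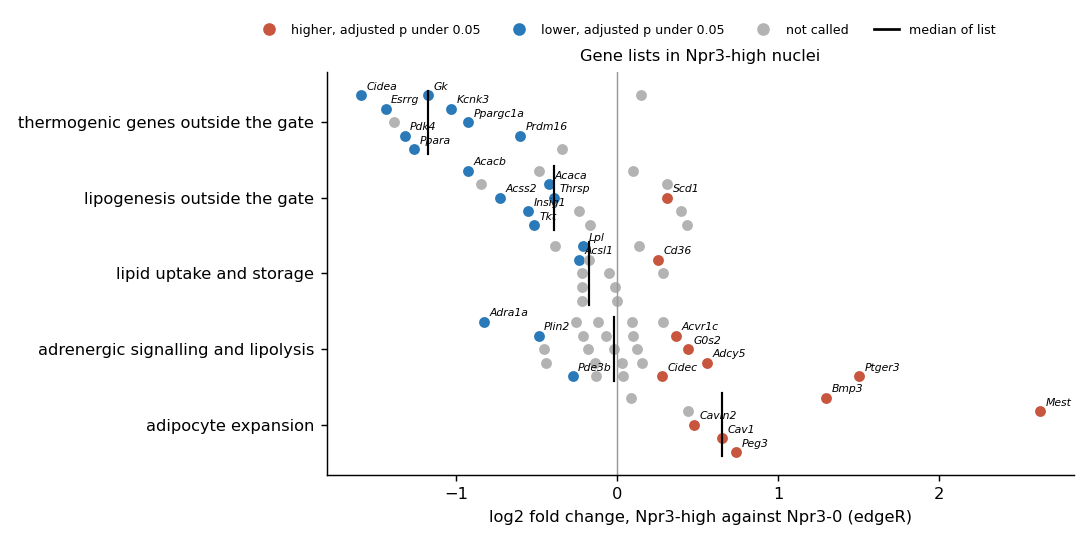
Log2 difference between Npr3-high and Npr3-0 nuclei for each tested gene of 5 lists, with called genes coloured and a bar at each list's median. The thermogenic list lies lowest (median -1.17) and the adipocyte expansion list highest (median 0.65), against -0.01 over all genes tested.

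Age changed 72 of 7833 genes (0.919%) in members, 63 (0.804%) higher and 9 (0.115%) lower in aged mice, and the direction was shared by each of 5 matched pairs for 57 and 7 of these. With RLE scaling the split was 56 to 18. The median over all genes tested was 0.15. Aged members held 2248483 UMIs in all and young members 503581. Some of the higher genes were nearly absent in young members, and the part of the lower young total in this was not tested. Of the 63 higher genes, 7 had 0 UMIs and 17 had 3 or fewer in young members. With 1 mouse left out, the lowest count was 32 genes, without young TN replicate 2 or without young 3D replicate 1, and 35 without young 3D replicate 2. It was 16 of 2479 genes (0.645%) after thinning to 800 UMIs, where 48 of the 72 calls could be tested, and 28 of 5274 (0.531%) with a low-count filter by age.

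Cux2, Nkain2, Ctnna3, Dock8 and Erbb4 were among the genes higher with age. Cux2, a homeobox transcription factor, had 0 UMIs in all 5 young mice and 66.6, 111.7 and 175.1 CPM as the lowest, median and highest value in aged mice. Aged members held 247 Cux2 UMIs, which is at least 18.4-fold higher than the floor of 3 counts over the young group. It was also at 0 in Npr3-0 nuclei of the same young mice, and at 25.3 ± 19.4 CPM (SD, n = 6) in those of aged mice. Nkain2 was at 10.1 CPM in young 3D replicate 1, from 1 UMI, and at 0 in the 4 other young mice, and at 81.1 to 375.2 CPM in aged mice. The groups did not overlap, and the pooled ratio was 101 with a 95% counting interval of 18.0 to 3998.

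Ctnna3, a catenin of cell junctions, had 0, 0, 0, 28.9 and 11.3 CPM in young TN replicates 1 and 2, 3D replicates 1 and 2 and 14D replicate 1, and 219 to 500 CPM in aged mice (log2 6.23, SE 0.52, adjusted p 2.94e-07). Dock8, a signalling protein known from immune cells, had 10.2, 0, 70.5, 57.8 and 33.8 CPM in the young mice in that order and 181 to 650 CPM in aged mice (log2 4.27, SE 0.44, adjusted p 2.26e-06). Erbb4, a neuregulin receptor, had 71.6, 109.9, 30.2, 14.4 and 95.7 CPM in young and 256 to 560 CPM in aged mice (log2 2.91, SE 0.28, adjusted p 8.76e-07). Every aged mouse lay above every young mouse in each of the 3 genes. Immune markers in members lay at 0 to 86.6 CPM in young and 0 to 138 CPM in aged mice, and with nuclei that held markers of other cell types removed Dock8 kept its call.

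Further genes that rose with age in every pair were the adaptor Sorbs2 (390 against 5 UMIs), Xkr4 (389 against 6) and C130026I21Rik (187 against 0, at least 14.0-fold higher). Of 18 calcium channel genes 7 passed the count filter, some of them only through the aged mice, so that their share says nothing of the list. Those called higher were Cacna1c (279 against 6 UMIs), the calcium release channel Ryr2 (374 against 1), Cacna2d3 (145 against 0) and Cacna1e (log2 2.02, SE 0.39, adjusted p 0.00939). After thinning to 800 UMIs the calls on Cacna1c (adjusted p 0.0558) and Sorbs2 (0.0618) were lost. Ptchd4 had 173.9, 47.1, 130.9, 28.9 and 28.2 CPM in the young mice and 99.9 to 351 CPM in aged mice (log2 1.50, SE 0.36, adjusted p 0.0456), with overlapping groups and a higher aged value in 4 of 5 pairs. Grb14, which blunts the insulin receptor, rose by 1.79 and Esrrg by 2.16 on the log2 scale, the latter from 180 UMIs in aged against 10 in young members. The fibroblast gene Dcn rose as well (97 against 4 UMIs), and all 5 tested fibroblast markers were positive (median log2 2.55, 1 called), though a gene could pass the count filter through the aged mice alone. Tested markers of immune (2 genes, median 2.11), smooth muscle (2 genes, 3.21), Schwann (1 gene, 2.20), endothelial (1 gene, 1.07) and muscle cells (1 gene, 0.80) were positive too, with none called, and the 1 tested liver marker was at -0.72. Summed over their lists, fibroblast markers in members lay at 39.4 to 350 CPM in young and 119 to 323 CPM in aged mice, smooth muscle markers at 0 to 21.2 and 8.05 to 70.3 CPM, Schwann markers at 0 to 47.1 and 39.2 to 85.6 CPM, and endothelial markers at 0 to 97.4 and 0 to 76.4 CPM. With nuclei that held markers of other cell types removed, 54 of 6679 genes were called by age, 46 higher and 8 lower, of which 52 were among the 71 earlier calls that could be tested, and of the 17 named genes Plbd1 lost its call.

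Genes lower with age were fewer. Fgf14 had 327, 314, 282, 347 and 524 CPM in young mice and 2.84 to 254 CPM in aged mice, with no overlap (log2 -1.68, SE 0.33, adjusted p 0.0120). The call on Fgf14 was lost without young TN replicate 1 or 2, young 3D replicate 2 or aged TN replicate 1 (adjusted p 0.0520, 0.0698, 0.0914 and 0.0641), and with the low-count filter by age (0.0501). Clmp, an adhesion protein, was at 258 ± 175 CPM (SD, n = 5) in young and 86.5 ± 54.9 CPM (n = 6) in aged mice (log2 -1.81, SE 0.26, adjusted p 0.000382). Its call was lost at 5 or more Npr3 UMIs (-1.69, adjusted p 0.0618). Lncbate1, a long non-coding RNA of brown and beige fat, differed by -1.52, Plbd1 by -1.31, Lpin1, a phosphatase of triglyceride synthesis, by -0.94, the kinase Camk1d by -0.93 and Hsd17b12, an enzyme of fatty acid elongation, by -0.92. Calls on the last 5 genes were lost under several settings. Plbd1 lost its call under 14 alternatives (DESeq2 adjusted p 0.170) and Hsd17b12 under 11 (DESeq2 0.0960), both without either aged TN mouse, aged 3D replicate 1, aged 14D replicate 1, young TN replicate 2 or young 3D replicate 1, Plbd1 also without young TN replicate 1 and Hsd17b12 without young 3D replicate 2. Camk1d lost it under 10, including without each young TN and young 3D mouse, aged TN replicate 1 or aged 14D replicate 1. Lpin1 lost it under 7, including without young TN replicate 2, young 3D replicate 1, either aged TN mouse, aged 3D replicate 1 or aged 14D replicate 1. Lncbate1 lost it under 5, including without young TN replicate 2 or either young 3D mouse. The adjusted p values without 1 of these mice reached at most 0.203. With 0.919% of all genes called, lists of this size would hold few calls, and none was called by age in lipogenesis (14 tested, median -0.53), adrenergic signalling (25 tested), expansion (7 tested), matrix (11 tested) and clock genes (10 tested).

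**Figure D5:**
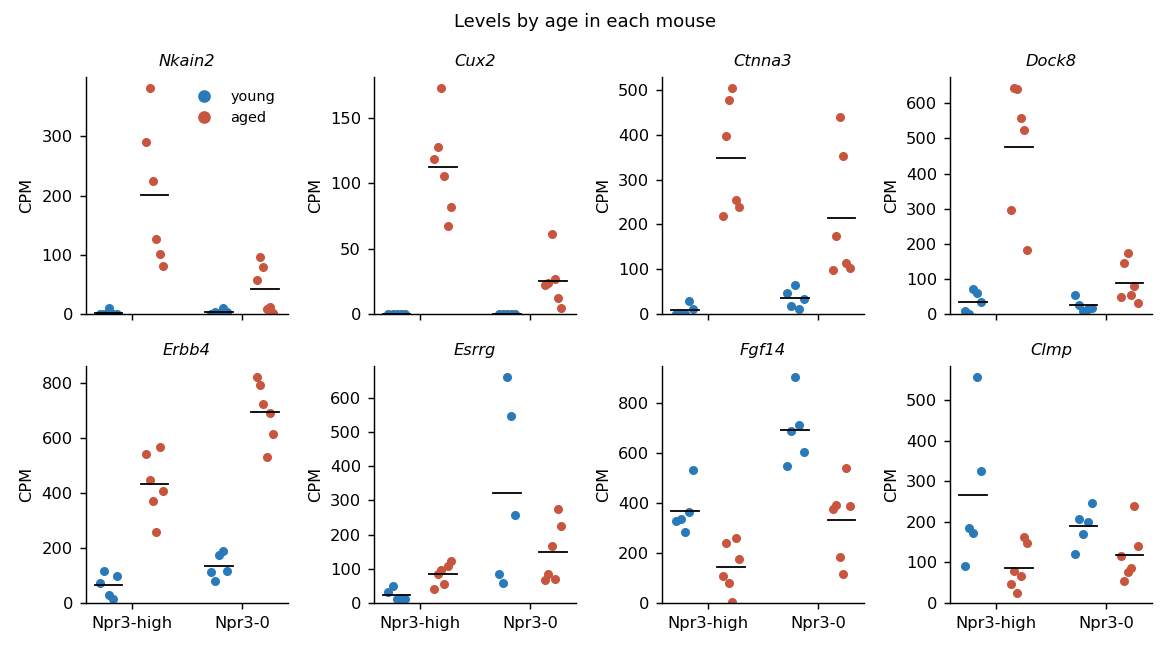
Normalized CPM per mouse of 8 genes in young and aged mice, in Npr3-high and in Npr3-0 nuclei. Nkain2, Cux2, Ctnna3, Dock8, Erbb4 and Esrrg are higher and Fgf14 and Clmp lower in aged Npr3-high nuclei.

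The age difference itself differed between members and Npr3-0 nuclei for 9 of 8582 genes (0.105%), all with a more positive log2 age difference in members. At an unadjusted p under 0.05 there were 406 such genes and 100 with the opposite sign, and DESeq2 called 1. Esrrg had the smallest p, though young members held 10 of its UMIs in all and aged members 180. It was at 23.5 ± 17.1 CPM in young members and 84.1 ± 31.6 CPM in aged members, whereas Npr3-0 nuclei went from 321 ± 273 to 148 ± 88.8 CPM (SD, n = 5 young and 6 aged). The difference of differences was 2.97 on the log2 scale (SE 0.43, adjusted p 1.32e-06), and in young mice the gap between classes was widest at 3D, with 10.1 and 15.1 CPM in members and 662 and 548 CPM in Npr3-0 nuclei. Ctnna3 (4.26), Sorbs2 (4.08) and Slc8a1, a sodium-calcium exchanger (3.97), also rose more in members. In nuclei matched for depth Ctnna3 and Sorbs2 gave -0.47 and -0.15, and Slc8a1 lost its call (adjusted p 0.723), as it did with doublets removed (0.226). With nuclei that held markers of other cell types removed, all 3 lost it, at 2.18 for Ctnna3 (adjusted p 0.802), 3.23 for Sorbs2 (0.765) and 2.84 for Slc8a1 (0.486). Slc4a4, a bicarbonate transporter, was at 98.3 CPM in young and 164 CPM in aged members, against 281 and 188 CPM in Npr3-0 nuclei (1.25, adjusted p 0.00861). Of these 5 genes, only 1 kept its call in nuclei matched for depth and 1 in DESeq2. With doublets removed 3 kept it, and at 2 or more Npr3 UMIs 2 did. Esrrg lost its call when nuclei with 2 Npr3 UMIs were counted as members (1.86, adjusted p 0.101). The count was 2 genes without young TN replicate 1, young 3D replicate 1 or young 3D replicate 2, 5 without young TN replicate 2, 15 without aged 14D replicate 1 and 25 without aged 3D replicate 2. The calls on Ctnna3, Sorbs2, Slc8a1 and Slc4a4 were each lost without young TN replicate 1 or young 3D replicate 1, and those on the last 3 also without young 3D replicate 2.

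Few genes were called after 3 days of cold. In all, 6 genes of 7833 (0.0766%) were called, 1 higher (0.0128%) and 5 lower (0.0638%), and 559 had an unadjusted p under 0.05. Alcam, an adhesion protein, was at 255 ± 84.9 CPM (SD, n = 4) at TN and 805 ± 396 CPM (n = 4) at 3D, with 1 overlapping mouse (log2 1.58, SE 0.30, adjusted p 0.0437). The log2 difference was -1.88 for Col6a3, a collagen chain, -2.98 for Flna, which crosslinks actin, -3.03 for Olfr1033 and -2.21 for A230057D06Rik. In edgeR no gene was called without young TN replicate 1, young 3D replicate 1 or young 14D replicate 1, where 497, 509 and 502 genes had an unadjusted p under 0.05. DESeq2 on all mice called 4, of which 2 were among these 6, and gave Flna, A230057D06Rik and Col6a3 adjusted p values of 0.0701, 0.191 and 0.276. The edgeR count was 1 without young 3D replicate 2 or aged TN replicate 2, 2 without young TN replicate 2 or aged TN replicate 1, and 13 without aged 3D replicate 1.

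After 14 days 23 genes (0.294%) were called in members, 14 higher (0.179%) and 9 lower (0.115%), each with the same direction in 3 of 3 pairs. The split of higher to lower turned to 8 to 13 in DESeq2, 27 to 30 at 2 or more Npr3 UMIs, 6 to 7 with nuclei with markers of other cell types removed and 3 to 6 with the low-count filter by age. It was 14 to 13 with RLE scaling and 8 to 8 with no pool in the model. Alcam had 205, 377, 190 and 249 CPM in young TN replicates 1 and 2 and aged TN replicates 1 and 2, and 890, 954 and 795 CPM in young 14D replicate 1 and aged 14D replicates 1 and 2 (log2 2.03, SE 0.33, adjusted p 0.0121). Esr1, the estrogen receptor, had 604, 518, 534 and 457 CPM at TN and 2083, 1980 and 1125 CPM at 14D in the same order (log2 1.81, SE 0.33, adjusted p 0.0121). Neither gene overlapped between TN and 14D.

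Acacb went from 460, 518, 194 and 334 CPM to 1081, 2059 and 1477 CPM (log2 2.05) and Insig1, a sterol-regulated brake on lipid synthesis, from 40.9, 47.1, 17.9 and 0 CPM to 220, 103 and 103 CPM (2.84). They were the 2 genes called among 14 lipogenic genes outside the gate, whose median was 0.82 against 0.04 over all genes. The gate kept members with at most 1 of 3 lipogenic genes at each temperature. The lipoprotein receptor Scarb1 rose by 1.78, Rnf217 by 1.73, Clstn2 by 1.51, Acad11, an acyl-CoA dehydrogenase, by 1.50, Fam13a by 1.46 and Svep1 by 1.44. Clmp, lower with age, was higher at 14D by 1.55.

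Hip1 had 1187, 675, 1541 and 1589 CPM at TN and 253, 372 and 552 CPM at 14D (log2 -1.88, SE 0.31, adjusted p 0.0121), with no overlap. Adamts5 had 849, 392, 947 and 660 CPM at TN and 293, 124 and 238 CPM at 14D (-1.65), also with no overlap. Both genes were higher in members than in Npr3-0 nuclei of the same mice. Flna (-2.47), Olfr1033 (-3.01), St5 (-1.84), Gm34907 (-1.85) and Gm5627 (-1.44) were lower as well. Gm47416 had 0 UMIs at 14D against 73 at TN, at least 23.1-fold lower, though young TN replicate 2 had none either.

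The 14D calls rested on few mice. No gene was called without young TN replicate 1, where 603 had an unadjusted p under 0.05, and 3 were called without aged TN replicate 1 and 11 without young TN replicate 2. The count was 35 without either aged 3D mouse and 55 without aged 14D replicate 2. Ptchd4 and Cacna1e differed from TN by -1.65 and -1.57 on the log2 scale, Nkain2 had 63 UMIs at 14D and 267 at TN, and none of the 3 was called. The mouse young 14D replicate 2 was not in this fit.

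The 14D response differed between members and Npr3-0 nuclei for 2 of 8582 genes (0.0233%). Neuronatin (Nnat), an imprinted gene of white adipocytes, differed little between the class means at TN, with 3452 ± 705 CPM in members and 3284 ± 1075 CPM in Npr3-0 nuclei (SD, n = 4). At 14D it had 2395, 1927 and 2265 CPM in members and 530, 685 and 786 CPM in Npr3-0 nuclei of young 14D replicate 1 and aged 14D replicates 1 and 2. Each mouse thus kept more Nnat in its members, and the difference of the responses was 1.77 (SE 0.20, adjusted p 2.71e-11).

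Tshr, the thyrotropin receptor, was at 1031 ± 291 against 839 ± 275 CPM at TN. At 14D it had 583, 830 and 780 CPM in members and 211, 161 and 387 CPM in Npr3-0 nuclei (1.28, SE 0.22, adjusted p 0.000174). Within members alone, neither gene was called at 14D, with log2 differences of -0.55 for Nnat and -0.51 for Tshr. The call on Tshr was lost without young TN replicate 1 (1.18, adjusted p 0.228) and in DESeq2, and that on Nnat held without any 1 of the mice that could be left out. The count of genes was 5 without aged TN replicate 2 or aged 14D replicate 2, 8 without either aged 3D mouse and 12 without aged 14D replicate 1.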

How the data were processed

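Nuclei of inguinal fat were hashed by mouse, pooled and sequenced (10x Genomics). The authors counted UMIs with Cell Ranger, introns included, on GRCm38 with GENCODE genes, removed ambient RNA with CellBender, kept genes found in at least 2 cells with at least 6 counts in all, kept singlets by demuxEM, and deposited these ambient-corrected UMI counts, not otherwise normalized, for 24 aliquots of 12 mice. Hashtag libraries were not used. A gene that an aliquot's table does not list had at most 5 UMIs there, or was found in fewer than 2 nuclei. It was taken as 0, which applied to Ucp1 in 12 aliquots.

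For each class, the nuclei of a mouse were added up into 1 count column, and these entered edgeR 4.0.16's quasi-likelihood test (R 4.3.3), with Benjamini-Hochberg adjusted p under 0.05 taken as called. Scaling was TMM with filterByExpr, so that CPM can differ slightly between comparisons. Mouse was the block for classes and pool for age and cold, as a pool is a shared batch per the labels. Over 2000 genes, 15 pairs of same-pool mice had correlations of -0.28 to 0.38 (median 0.069). Sums held 48000 to 443266 UMIs per mouse in members and 159810 to 976458 in Npr3-0 nuclei. Mice with fewer than 10 nuclei in a class were dropped. Doublets were marked with Scrublet in scanpy 1.11.5 (500 of 15277 nuclei) and kept. Shares were tested by exact permutation among mice matched for pool and for the other factor (scipy 1.17.1). Intervals of shares are 95% Wilson intervals, and that of the pooled UMI ratio is an exact conditional 95% interval. On simulated counts, 173 of 200 changed genes were called for the class comparison and 108 of 200 for age, with 8 unchanged genes called in each. The simulated mice shared the same mean profile and a fixed spread, and only genes with many UMIs were changed. The simulation thus cannot say how the tests fare on genes near 0 UMIs or with the real spread between mice.

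Named genes were up to 10 per direction with the smallest p among called genes that moved the same way in every mouse or matched pair (5 per direction for differences between classes), and genes of the lists. Members, lists and the rule were chosen with earlier results of these data known. Alternatives were DESeq2 1.42.0, RLE scaling, no low-count filter, no block, other Npr3 thresholds, thinning to 800 UMIs, matched depth, removal of doublets or liver-marked nuclei, and each mouse left out. Removal of nuclei with markers of other cell types and a low-count filter by age or class were added after seeing the data. Some genes are not reported here.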

Additional observations from a re-analysis of the deposited data

Results flagged for a closer look

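In members, 7 of 73 groups of mice held a value set apart from the rest of its group by Dixon's test, which chance gives in about 1 of 20 groups. The highest young values were 10.1 CPM for Nkain2 in young 3D replicate 1, 51.1 CPM for Cacna1c in young TN replicate 1, 5.63 CPM for Ryr2 and 523.7 CPM for Fgf14 in young 14D replicate 1, and 376.7 CPM for Lncbate1 and for Hsd17b12 in young TN replicate 2. The highest aged value for Ryr2 was 424.5 CPM, in aged TN replicate 2.

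The log2 age difference was more positive in members than in Npr3-0 nuclei for Esrrg (by 2.97), Ctnna3 (4.26), Slc8a1 (3.97), Sorbs2 (4.08) and Slc4a4 (1.25). Within Npr3-0 nuclei, Esrrg and Slc4a4 had lower means in aged than in young mice. The 14D response was higher in members for Nnat (1.77) and Tshr (1.28). Each of these differences was itself tested across mice with edgeR's quasi-likelihood test and was past an adjusted p of 0.05. In DESeq2, 1 of the calls on age held and 4 were lost. In depth-matched nuclei 1 held, 2 were lost, and Ctnna3 and Sorbs2 changed sign.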

How the results depend on the processing

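Of 1461 values of 68 named genes under the alternatives, 1215 stayed on their side of the threshold, 244 lost the call and 2 changed sign, Ctnna3 (-0.47) and Sorbs2 (-0.15) for age by class in depth-matched nuclei. The class comparison called 211 of 5376 genes with no replicate block (610 with the block on as many genes), 310 of 3955 (7.84%) after thinning and 525 of 5143 (10.2%) in depth-matched nuclei, against 10.4% on all nuclei, and 609 to 774 with 1 mouse left out; without the block Acacb and Slit2 lost their calls among 19 of its 20 named genes, and Pde3a was not tested. Age called 41 genes in DESeq2, 168 with no low-count filter, 16 of 2479 after thinning, 38 at 5 or more Npr3 UMIs and 28 of 5274 with the filter by age, and 32 to 101 with 1 mouse left out. The 3D comparison called 20 with no low-count filter, 3 with no replicate block, with doublets removed or with other markers removed, 1 after thinning or at 5 or more Npr3 UMIs and 0 in edgeR with the filter by age (387 at an unadjusted p under 0.05), and 0 to 13 with 1 mouse left out. The 14D comparison called 113 with no low-count filter, 13 after thinning or with other markers removed, 57 at 2 or more Npr3 UMIs and 9 with the filter by age, and 0 to 55 with 1 mouse left out.

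Age by class called 1 gene in DESeq2 and in depth-matched nuclei, 15 with no low-count filter, 4 with doublets removed, after thinning or at 2 or more Npr3 UMIs, 5 with other markers removed or the filter by class, and 2 to 25 with 1 mouse left out. The 14D response by class called 1 gene in DESeq2, 7 with no low-count filter, 6 with liver-marked nuclei removed and 4 after thinning, and 1 to 12 with 1 mouse left out. For Npr3 over all gated nuclei, the log2 difference after thinning was 0.96 for age (adjusted p 0.114) and -1.48 for 3D (0.0688), and with no replicate block -1.44 for 3D (0.0638). For 14D it was -1.16 in DESeq2, with no low-count filter and with doublets removed, and -0.96 with other markers removed, all past the threshold. With 1 mouse left out it ran from 0.86 to 1.10 for age, -1.55 to -1.32 for 3D, -1.38 to -1.01 for 14D and -1.49 to -0.74 for age by 14D. The share of Npr3-positive nuclei differed by age by 21.5 points at 1600 UMIs (exact permutation p 0.03125) and by 14.3 with no replicate block (0.0185), and by cold by -11.5 points unthinned (0.0664). With 1 mouse left out it ran from 11.6 to 18.1 points for age and from -27.8 to -18.0 for cold. The replicate block changed no other call on Npr3 or its share. The causes were not tested. Without young 14D replicate 1, the age, 14D and class-by-condition comparisons in members could not be computed. Depth limits the young members most, with 503581 UMIs in 5 mice.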

Other observations

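Npr3 was also found in adipocyte nuclei outside the gate. In a separate thinning to 800 UMIs, 14.1% of 510 nuclei with at least 1 Ucp1 UMI had an Npr3 UMI (95% Wilson interval 11.4 to 17.4), at a median depth of 3697 UMIs. Of 1853 nuclei without Ucp1 and with 2 or 3 of the lipogenic genes Acly, Fasn and Elovl6, 12.3% did (10.8 to 13.8), at a median depth of 3880 UMIs. By temperature, the latter share was 53.2% of 62 nuclei at TN, 9.27% of 561 at 3D and 11.5% of 1230 at 14D. By age it was 9.75% in young and 19.0% in aged mice, pooled over nuclei and not tested.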
